A study of Mus musculus with 6 samples.

Results

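The genes that make, sense and export cholesterol were followed in mouse cheek skin after repeated stripping of surface lipid. They comprised 29 of the 19309 genes in the deposited table, taken by gene symbol from a list that holds 19 enzymes of cholesterol synthesis, 5 genes of the SREBP control system, the sterol transfer gene Stard4, the efflux transporters Abca1 and Abcg1, and the liver X receptors Nr1h2 and Nr1h3. The list sets no threshold on a measured value, and all 29 were found once in the table. Lipoprotein receptors are not among the 29, and other uptake genes are given further on as a separate list.

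RNA was sequenced from 3 C57BL/6 mice aged 6 to 8 weeks, in 6 libraries of whole cheek tissue, 1 per cheek. In each mouse the shaved right cheek received acetone mixed with ether for 30 s, followed by 30 s of water (AEW, a model of dry and itching skin), and the left cheek was wiped for 60 s with water only (vehicle). Wiping was done 2 times a day over 12 days, and both cheeks were taken on day 12. All animals were healthy before treatment and no allele or drug is named in the labels, each group has 3 libraries, and since AEW was given on the right in all animals, side and treatment cannot be told apart.

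Cholesterol is built from acetyl-CoA through mevalonate, squalene and lanosterol, and each enzyme below catalyses a step of that chain. When sterol in the endoplasmic reticulum is low, SCAP carries SREBP-2, the product of Srebf2, out of the INSIG proteins' hold, and the released factor switches on the synthesis genes. Oxysterols, made when sterol is plentiful, activate the liver X receptors, which switch on Abca1 and Abcg1. In skin, cholesterol forms the lamellae of the cornified layer together with ceramides and fatty acids, and removal of surface lipid with solvent is known to raise cholesterol synthesis in mouse epidermis.

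Library totals lay between 18449207 and 19506491 estimated counts, and the counts of single members ran from 301 to 18782. The right cheek of mouse 1 stood apart in its hair follicle markers, whose summed TPM was 1608 there, 42.8 and 445 in the AEW cheeks of mice 2 and 3, and 238 to 273 in the vehicle cheeks. Epidermal keratin genes were high in all libraries. Skeletal muscle markers summed to between 27243 and 38154 TPM in vehicle skin and between 11255 and 15499 TPM in AEW skin, so the samples hold muscle as well. In such bulk samples, fewer cells of a type and less RNA per cell cannot be told apart.

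Of the 19 synthesis enzymes, 3 were called higher in AEW skin and 11 had groups that overlapped. Among all members Mvk, Ebp, Dhcr7 and Srebf2 rose, by 0.40, 0.55, 0.91 and 0.45 on the log2 scale, so that no rise reached 2 fold on all 6 libraries, and 0 members fell. The call rested on an adjusted p under 0.05 in the quasi-likelihood test of edgeR, fitted to 15109 genes, so that 4 of 29 members (13.8%) were higher where 4.85% of all tested genes were. For lower levels the share over all tested genes was 6.8%, and 1 member, Nr1h3, was lower at an unadjusted p under 0.05. DESeq2 called 9 members higher, beside 8.56% of the genes it gave an adjusted p, and DESeq2 and limma also called 0 members lower. All 19 synthesis enzymes had a fold change above 0, and the median over the 29 members was 0.24 on the log2 scale beside 0.01 over all tested genes. The AEW and vehicle libraries did not overlap for 11 members (37.9%), all higher in AEW, beside 17.4% of all tested genes with AEW above vehicle and 19.5% with AEW below. In 20 members (69.0%) the AEW cheek was above the vehicle cheek in all 3 mice, beside 25.3% of all tested genes.

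These calls were thin. With the mouse as a block, 2 members were higher, Ebp and Stard4, where 1.99% of all tested genes were, and 0 were lower, where 3.89% were. No member passed once vehicle replicate 1 or 3, or AEW replicate 2 or 3, was left out, where 0.216%, 0.15%, 1.14% and 2.27% of all tested genes were higher, so that calls were fewer over all genes too. Once AEW replicate 1 was left out 8 passed, beside 7.83% of all tested genes, and leaving out vehicle replicate 2 gave 5, beside 2.46%.

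**Figure D1:**
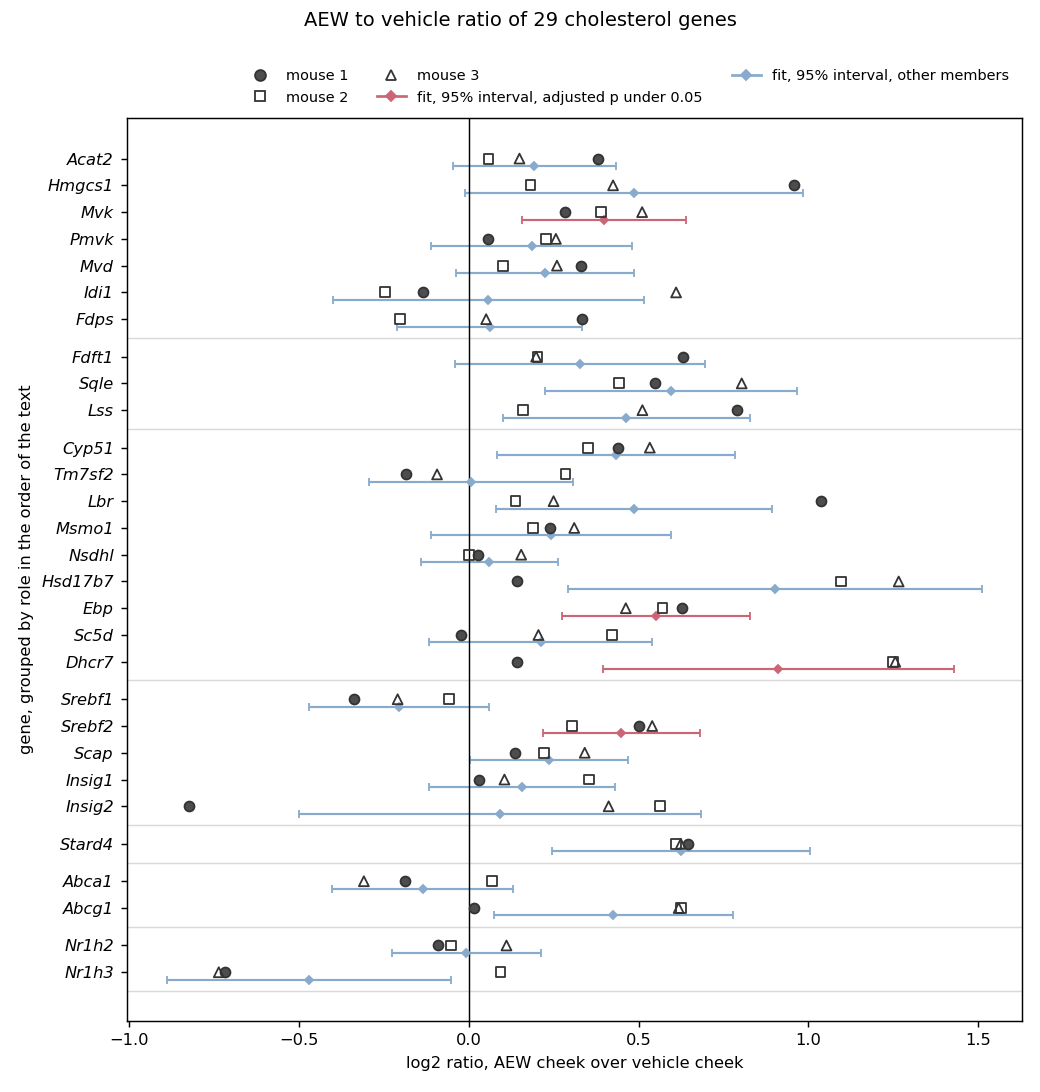
The log2 ratio of AEW to vehicle cheek is plotted on the horizontal axis for 29 genes, grouped by role, with 1 symbol per mouse and, just under it, the fitted log2 fold change with its 95% interval (red where the adjusted p was under 0.05). The 19 synthesis enzymes, in the upper 3 blocks, lie mostly right of 0, whereas Nr1h3, Abca1 and Srebf1 lie mostly left of it.

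Levels per gene length, on the deposited TPM scale, spanned a wide range. Msmo1, a methylsterol oxidase, was the most abundant member in both groups, at 658 TPM on average in vehicle skin and 806 TPM in AEW skin, followed by Fdps (296 and 323 TPM) and Hmgcs1 (209 and 303 TPM). Abcg1 (9.06 and 12.6 TPM), Stard4 (10.1 and 16.0 TPM) and Lbr (13.2 and 19.3 TPM) were the least abundant in vehicle skin. The order moved most for Dhcr7 and Sqle, which passed from rank 9 to rank 4 and from rank 12 to rank 7 of 29 between vehicle and AEW skin.

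The mevalonate steps turn acetyl-CoA into the isoprenoid unit from which sterols are assembled. Mvk (gene 17855), which encodes mevalonate kinase, stood at 50.2, 55.0 and 52.6 CPM in the vehicle cheeks of mice 1, 2 and 3 and at 61.1, 72.0 and 74.9 CPM in their AEW cheeks, where CPM is counts scaled to a common library size with TMM factors. Every AEW library was above every vehicle library. The means were 52.6 ± 2.39 and 69.3 ± 7.26 CPM (SD, n = 3 each), a log2 fold change of 0.40 ± 0.10 (SE, edgeR adjusted p = 0.04997). The adjusted p was 0.0752 with the mouse as a block and 0.0536 with no filter on low counts, and with 1 library left out Mvk passed the threshold only in the fit without AEW replicate 1.

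Hmgcs1, the synthase that feeds mevalonate production, stood at 332, 585 and 407 CPM in vehicle skin and at 644, 663 and 547 CPM in AEW skin. Its groups overlapped because the vehicle cheek of mouse 2 was above the AEW cheek of mouse 3, and the log2 fold change of 0.49 had a 95% interval from -0.01 to 0.98. Without vehicle replicate 2 it was 0.74 (adjusted p = 0.0461), and without vehicle replicate 1 it was 0.32 (adjusted p = 0.37). The thiolase gene Acat2, the kinase gene Pmvk and the decarboxylase gene Mvd were each higher in the AEW cheek of all 3 mice, with log2 fold changes of 0.19, 0.18 and 0.22 and adjusted p of 0.245, 0.363 and 0.222. Idi1, an isomerase, and Fdps, which builds farnesyl pyrophosphate, had log2 fold changes of 0.06 each, and the mice differed in sign. Of the 7 genes of these steps, 1 was called higher and 0 lower, beside 4.85% and 6.8% of all tested genes. The median log2 fold change of the 7 was 0.19.

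Squalene is formed, oxidised and closed into lanosterol by the products of Fdft1, Sqle and Lss. None of the 3 was called by edgeR, at adjusted p of 0.205, 0.0534 and 0.0955. DESeq2 called Sqle and Lss higher, beside 8.56% of the genes it gave an adjusted p. Sqle (gene 20775), the squalene epoxidase gene and a control point of the chain, stood at 100, 138 and 109 CPM in vehicle skin and at 147, 188 and 191 CPM in AEW skin. The groups did not overlap, and the log2 fold change was 0.59 ± 0.16 (SE), with a 95% interval from 0.22 to 0.97. Its adjusted p was 0.0502 with the mouse as a block and 0.025 without AEW replicate 1. Lss, the lanosterol synthase gene, was also apart between the groups, at 73.7, 112 and 85.2 CPM against 127, 125 and 121 CPM, with a log2 fold change of 0.46 ± 0.15 (SE). Its AEW libraries lay close together, and the vehicle libraries were more spread. Fdft1, the squalene synthase gene, had a log2 fold change of 0.33 and was higher in the AEW cheek of all 3 mice. Its log2 fold change was 0.18 without vehicle replicate 1.

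The steps from lanosterol to cholesterol held the largest log2 fold changes of single members, those of Dhcr7 and Hsd17b7. The median over the 9 genes was 0.43, below the 0.46 of the squalene and lanosterol steps. Of the 9, edgeR called 2 higher and 0 lower, beside 4.85% and 6.8% of all tested genes. DESeq2 called 4 higher (Ebp, Dhcr7, Hsd17b7 and Cyp51), beside 8.56%. For 5, every AEW library was above every vehicle library, beside 17.4% of all tested genes. Ebp (gene 13595), a sterol isomerase gene, stood at 50.4, 62.7 and 57.2 CPM in the vehicle cheeks and at 77.9, 93.0 and 78.8 CPM in the AEW cheeks. Each AEW library was above every vehicle library, and the 3 mice were alike, with log2 ratios of 0.63, 0.57 and 0.46. The log2 fold change was 0.55 ± 0.12 (SE, edgeR adjusted p = 0.0319, and 0.0374 in the fit blocked by mouse). With 1 library left out, Ebp passed in the fits without vehicle replicate 2 and without AEW replicate 1 but not in the other 4.

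Dhcr7 (gene 13360), the reductase gene of the last step to cholesterol, stood at 127, 96.4 and 101 CPM in vehicle skin and at 141, 229 and 241 CPM in AEW skin. The groups did not overlap, but the AEW cheek of mouse 1 was near the vehicle level while those of mice 2 and 3 were more than 2 times their vehicle cheeks, with log2 ratios of 0.14, 1.25 and 1.26. The log2 fold change was 0.91 ± 0.22 (SE, edgeR adjusted p = 0.0429), and the adjusted p was 0.117 with the mouse as a block. With 1 library left out it passed in 1 fit, that without AEW replicate 1, at a log2 fold change of 1.11.

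Hsd17b7, which encodes a sterol keto-reductase, had the same split among mice. It stood at 86.8, 92.3 and 77.0 CPM in vehicle skin and at 95.8, 197 and 185 CPM in AEW skin, with log2 ratios of 0.14, 1.09 and 1.27. The log2 fold change was 0.90 ± 0.26 (SE). Its adjusted p was 0.0661 on all libraries and 0.00341 when AEW replicate 1 was left out. For Lbr, mouse 1 had the largest ratio instead. This gene encodes a nuclear envelope protein with sterol reductase activity, and its log2 ratios were 1.04, 0.14 and 0.25 in mice 1, 2 and 3 (log2 fold change 0.49, adjusted p = 0.11). Its levels were 24.3, 30.4 and 31.3 CPM in vehicle skin and 49.8, 33.4 and 37.3 CPM in AEW skin.

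Cyp51, the lanosterol demethylase gene, stood at 252, 327 and 242 CPM against 341, 417 and 351 CPM, with no overlap and a log2 fold change of 0.43 (adjusted p = 0.103). Msmo1 had log2 ratios of 0.24, 0.19 and 0.31, and the interval of its log2 fold change of 0.24 ran from -0.11 to 0.59 (95%). Nsdhl, a sterol dehydrogenase gene, and Sc5d, which encodes lathosterol oxidase, had log2 fold changes of 0.06 and 0.21. Tm7sf2, whose product is a reductase like that of Lbr, was at 0.01 (95% interval -0.29 to 0.31). Msmo1, Nsdhl, Sc5d and Tm7sf2 had overlapping groups, and none of them passed the test.

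**Figure D2:**
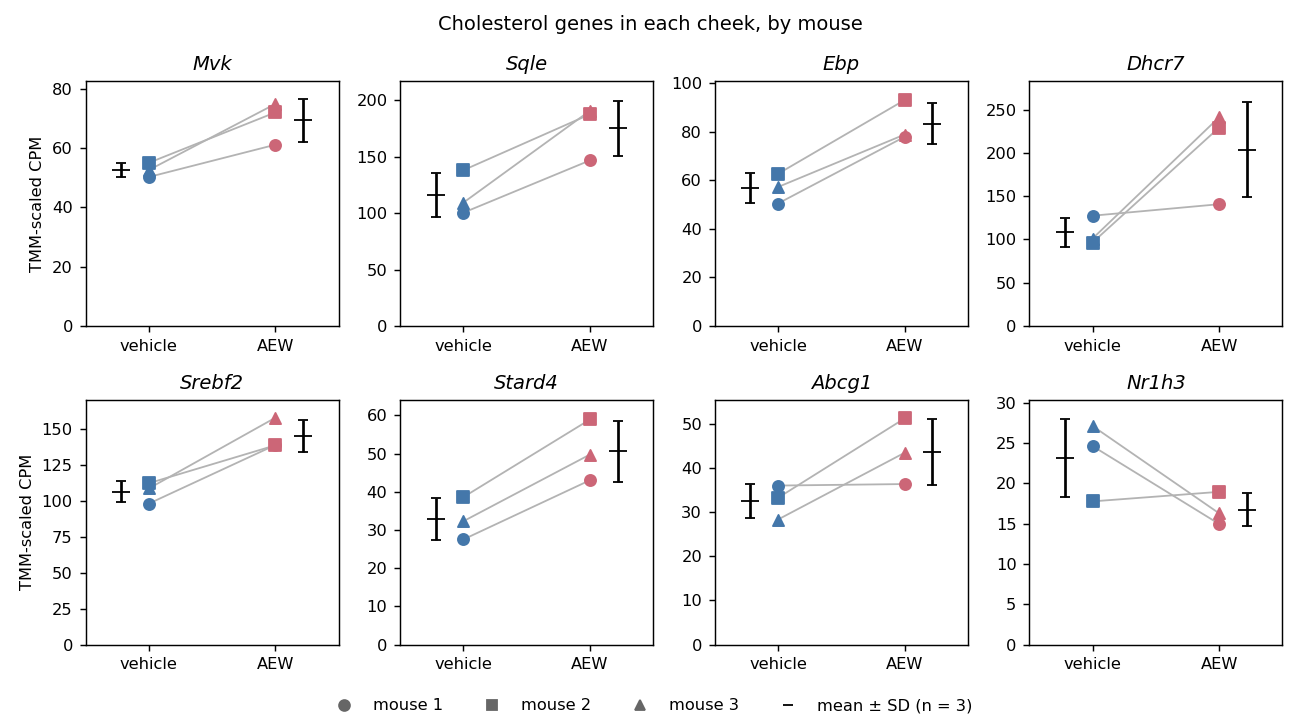
TMM-scaled CPM is plotted for each cheek of each mouse for 8 members, with lines joining the cheeks of 1 mouse and bars giving the mean ± SD over 3 libraries. Mvk, Sqle, Ebp, Dhcr7, Srebf2, Stard4 and Abcg1 have every AEW library above every vehicle library, and for Dhcr7 and Abcg1 the line of mouse 1 is nearly flat.

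Promoter sequence is shown for members that rose and for Hmgcs1, because SREBP acts together with NF-Y and Sp1 at the promoters of this pathway. RefSeq windows (build GRCm38.p6, 250 bases before to 50 bases after a gene's start) were found for 24 of the 29 members, in 33 windows, and were searched on both strands. The NF-Y box CCAAT was found in 19 of the 24 members (79.2%), beside 42.4% of the 11966 tested genes with a window. The GC box GGGCGG, to which Sp1 binds, was found in 21 members (87.5%), beside 64.1% of those genes, and the E-box CACGTG in 6 members (25%), beside 11.0%. None of these motifs contains another, and a gene counts once however many windows it has. The letters TCACNCCAC, a strict form of the sterol regulatory element, were found in 1 member, Hmgcs1, and in 1.40% of the tested genes. The direct repeat of the liver X receptor element, in a strict form with a spacer of 4 bases, was in 0 members and 1 of the tested genes. In the stretches below, read 5′ to 3′ on the gene's own strand and ending before the start, capitals mark the NF-Y box on either strand (CCAAT or ATTGG) and, in Hmgcs1 alone, the sterol regulatory element.
Hmgcs1, chr13:119690101-119690330, plus strand: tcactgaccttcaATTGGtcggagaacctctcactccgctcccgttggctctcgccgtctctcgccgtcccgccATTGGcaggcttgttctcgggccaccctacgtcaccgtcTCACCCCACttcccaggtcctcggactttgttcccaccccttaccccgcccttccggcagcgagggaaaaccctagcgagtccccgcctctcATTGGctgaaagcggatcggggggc
Mvk, chr5:114444076-114444268, plus strand: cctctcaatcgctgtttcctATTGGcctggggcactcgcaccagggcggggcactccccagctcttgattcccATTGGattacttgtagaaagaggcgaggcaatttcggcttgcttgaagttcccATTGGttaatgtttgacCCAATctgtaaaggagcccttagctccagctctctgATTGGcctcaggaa
Ebp, chrX:8193543-8193702, minus strand: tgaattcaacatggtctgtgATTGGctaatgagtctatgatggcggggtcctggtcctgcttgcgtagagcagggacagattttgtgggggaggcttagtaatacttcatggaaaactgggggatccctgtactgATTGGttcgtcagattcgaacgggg
Dhcr7, chr7:143830109-143830189, plus strand: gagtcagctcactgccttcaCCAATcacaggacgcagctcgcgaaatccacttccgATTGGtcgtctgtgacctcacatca
Srebf2, chr15:82147114-82147158, plus strand: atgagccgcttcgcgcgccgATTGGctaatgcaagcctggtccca

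The stretch of Mvk holds 5 NF-Y boxes, that of Hmgcs1 3, those of Ebp and Dhcr7 2 each and that of Srebf2 1. Windows at other starts of Dhcr7, with an E-box or a GC box, held no NF-Y box and are not shown. Abca1, Acat2, Nr1h2, Nr1h3 and Scap had a window without CCAAT on either strand. A match describes letters only, and binding was not measured. Abcg1, Fdft1, Fdps, Sqle and Stard4 were not matched to a window.

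Among the SREBP control genes, 1 of 5 was called higher and 0 lower, beside 4.85% and 6.8% of all tested genes. Srebf2 (gene 20788), which encodes the factor that drives cholesterol synthesis, stood at 97.9, 112 and 108 CPM in vehicle skin and at 139, 138 and 158 CPM in AEW skin. The groups were clearly apart, with a log2 fold change of 0.45 ± 0.10 (SE, edgeR adjusted p = 0.0341). The adjusted p was 0.0643 with the mouse as a block, and with 1 library left out it passed only in the fit without AEW replicate 1.

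Srebf1 encodes the related factor that mainly drives fatty acid synthesis. Its levels were 177, 151 and 186 CPM in vehicle skin and 140, 145 and 161 CPM in AEW skin. Every AEW cheek was below its own vehicle cheek although the groups overlapped, and the log2 fold change was -0.21 with a 95% interval from -0.47 to 0.06 (adjusted p = 0.26). The ratio of Srebf2 to Srebf1 TPM was 0.485, 0.639 and 0.501 in vehicle skin and 0.839, 0.846 and 0.871 in AEW skin. All AEW ratios were above all vehicle ratios, and the two-sided exact permutation test gave p = 0.1, the smallest that 3 against 3 libraries allow. That test takes the 6 libraries as independent, and exchanging cheeks within each mouse gave an exact p of 0.25, again the smallest possible. This ratio was chosen after the values were seen.

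Scap, the escort of the SREBPs, was higher in the AEW cheek of all 3 mice, with a log2 fold change of 0.24 (95% interval 0.00 to 0.47, adjusted p = 0.159). Insig1, a retention protein that is itself an SREBP target, had a log2 fold change of 0.16 (adjusted p = 0.403). Insig2, the related retention protein, was among the members on which the mice differed most. Its levels were 132, 94.0 and 104 CPM in vehicle skin and 74.9, 139 and 139 CPM in AEW skin, so its AEW cheek was lower in mouse 1 and higher in mice 2 and 3, with log2 ratios of -0.82, 0.56 and 0.41. The fitted log2 fold change was 0.09 with a 95% interval from -0.50 to 0.68.

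Stard4 (gene 170459), which encodes a small protein that carries sterol between membranes and is an SREBP-2 target, gave the most even ratio of all members. It stood at 27.5, 38.6 and 32.3 CPM in the vehicle cheeks and at 43.0, 58.9 and 49.8 CPM in the AEW cheeks, with log2 ratios of 0.64, 0.61 and 0.62. These ratios differed by less among mice (SD 0.017) than the counting error of 1 ratio (0.075). The mice kept their order in both cheeks. The log2 fold change was 0.62 ± 0.16 (SE), with an edgeR adjusted p of 0.0503 in the fit with group alone and of 0.024 in the fit blocked by mouse, and DESeq2 called it too.

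The efflux genes did not move together. Abcg1 (gene 11307), a transporter that loads cholesterol onto lipoprotein particles, stood at 36.0, 33.2 and 28.3 CPM in vehicle skin and at 36.3, 51.2 and 43.4 CPM in AEW skin. The groups did not overlap, but the lowest AEW and the highest vehicle value, both from mouse 1, nearly touched. Its log2 fold change was 0.42 ± 0.15 (SE, adjusted p = 0.108), and 0.53 when AEW replicate 1 was left out (adjusted p = 0.0399). Abca1, which exports cholesterol to apolipoprotein, stood at 145, 151 and 159 CPM and at 127, 159 and 128 CPM, a log2 fold change of -0.14 with a 95% interval from -0.40 to 0.13. Neither transporter was called by edgeR, DESeq2 or limma on all 6 libraries.

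The liver X receptors were not called either. Nr1h2, the broadly expressed form, stood at 99.5, 103 and 103 CPM in vehicle skin and at 93.4, 99.2 and 112 CPM in AEW skin, with a log2 fold change of -0.01 and a 95% interval from -0.23 to 0.21. Its sign was above 0 on the TPM scale. Nr1h3 (gene 22259), the form best known from macrophages, liver and fat, stood at 24.6, 17.8 and 27.1 CPM and at 15.0, 18.9 and 16.3 CPM. It was lower in the AEW cheek of mice 1 and 3 and slightly higher in that of mouse 2, and its log2 fold change was -0.47 ± 0.18 (SE, adjusted p = 0.126). Macrophage markers had the same direction as Nr1h3 in mouse 1, where their summed TPM was 1672 in the vehicle and 695 in the AEW cheek, and in mouse 2, where it was 801 and 1572. They went the other way in mouse 3, where it was 651 and 1215. Adipocyte markers had median log2 ratios of -1.15, -0.01 and -1.26 in mice 1, 2 and 3, an order like that of Nr1h3, and their part in its level was not tested.

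The mice thus differed in which step shifted most. Among the 19 synthesis enzymes, mouse 1 had the highest of the 3 ratios for 8 and the lowest for 6, mouse 2 the highest for 2 and the lowest for 11, and mouse 3 the highest for 9 and the lowest for 2. Their median log2 ratio was 0.33, 0.20 and 0.31 in mice 1, 2 and 3. In mouse 2 the vehicle cheek itself was the highest of the 3 vehicle cheeks, with a summed TPM of 2418 for the enzymes against 1851 and 1970 in mice 1 and 3. The AEW cheeks were at 2602, 2750 and 2721.

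Other genes of the pathway were read from lists. Of 13 tested genes of sterol synthesis and SREBP control, 0 were called in either direction by edgeR, beside 4.85% higher and 6.8% lower over all tested genes. Of the 13, 1 was lower at an unadjusted p under 0.05, and the median log2 fold change was -0.06. Erg28, a scaffold protein of the sterol enzymes, had the smallest p of these (log2 fold change 0.53, adjusted p = 0.06). DESeq2 called it higher and called no other.

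Of 19 tested genes for uptake, storage and trafficking, 1 was higher and 1 lower, beside 4.85% and 6.8% of all tested genes. The median log2 fold change was -0.02. Vldlr, a lipoprotein receptor, fell from 64.8, 67.0 and 84.0 CPM to 37.4, 39.4 and 42.3 CPM, a log2 fold change of -0.86 ± 0.12 (SE, edgeR adjusted p = 0.0125) and it was called whichever of the 6 libraries was left out. The 6 skeletal muscle and 6 adipocyte markers had median log2 fold changes of -1.37 and -0.83. Their part in the fall of Vldlr was not tested, and markers of other cell types are given further on. Lrp8, a receptor of the same family, rose from 2.07, 2.32 and 2.28 CPM to 6.06, 4.93 and 4.60 CPM (log2 fold change 1.22, adjusted p = 0.0171). Its adjusted p was 0.0555 with the mouse as a block, and leaving out vehicle replicate 1 or 3 or AEW replicate 2 ended the call.

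Of 17 tested genes for other efflux, oxysterol and cholesterol sulphate steps, 1 rose and 1 fell, beside 4.85% and 6.8% of all tested genes. Sult2b1, which makes cholesterol sulphate in the upper epidermis, rose from 57.8, 56.4 and 50.1 CPM to 88.2, 163 and 141 CPM, a log2 fold change of 1.26 ± 0.22 (SE, edgeR adjusted p = 0.0194) that was lost without vehicle replicate 1 or vehicle replicate 3. Abca5, a transporter of the family of Abca1, fell from 27.7, 32.0 and 34.3 CPM to 13.1, 11.8 and 15.6 CPM (log2 fold change -1.21, adjusted p = 0.00819), and was called whichever library was left out. The part of the lower muscle and adipocyte markers in this fall was not tested either.

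Fatty acid genes controlled by SREBP-1 had mostly lower levels in AEW skin. Of 15 tested, 1 was higher and 5 were lower, beside 4.85% and 6.8% of all tested genes. With the mouse as a block 1 was higher and 2 were lower, beside 1.99% and 3.89%. DESeq2 called 2 higher and 7 lower, beside 1351 and 1500 of the 15785 genes it gave an adjusted p. The median log2 fold change was -0.37, beside 0.33 for the cholesterol enzymes. Elovl5, a fatty acid elongase gene, fell by 0.62 and Acss2, an acetyl-CoA synthetase gene, by 0.72 on the log2 scale (adjusted p = 0.0193 and 0.0366). Me1, the malic enzyme gene, had a log2 fold change of -0.60 (adjusted p = 0.0442 with group alone, 0.0645 with the mouse block). Scd2, a desaturase gene, rose by 0.84 (adjusted p = 0.0263). Each of these 4 calls was lost in at least 3 of the 6 fits on 5 libraries, those without vehicle replicate 1 and vehicle replicate 3 among them, and limma on TPM kept Elovl5 and Scd2 alone. The ratio of the enzymes' summed TPM to that of the fatty acid genes was 0.361, 0.61 and 0.355 in vehicle skin and 0.659, 0.842 and 0.697 in AEW skin, with no overlap. The two-sided exact permutation p was 0.1, and 0.25 within mice, each the smallest possible, on a ratio chosen after the values were seen. Adipocyte markers, whose summed TPM was 4635 to 7559 in vehicle and 3312 to 3933 in AEW skin, moved in the same direction as the fatty acid genes, and their part was not tested.

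**Figure D3:**
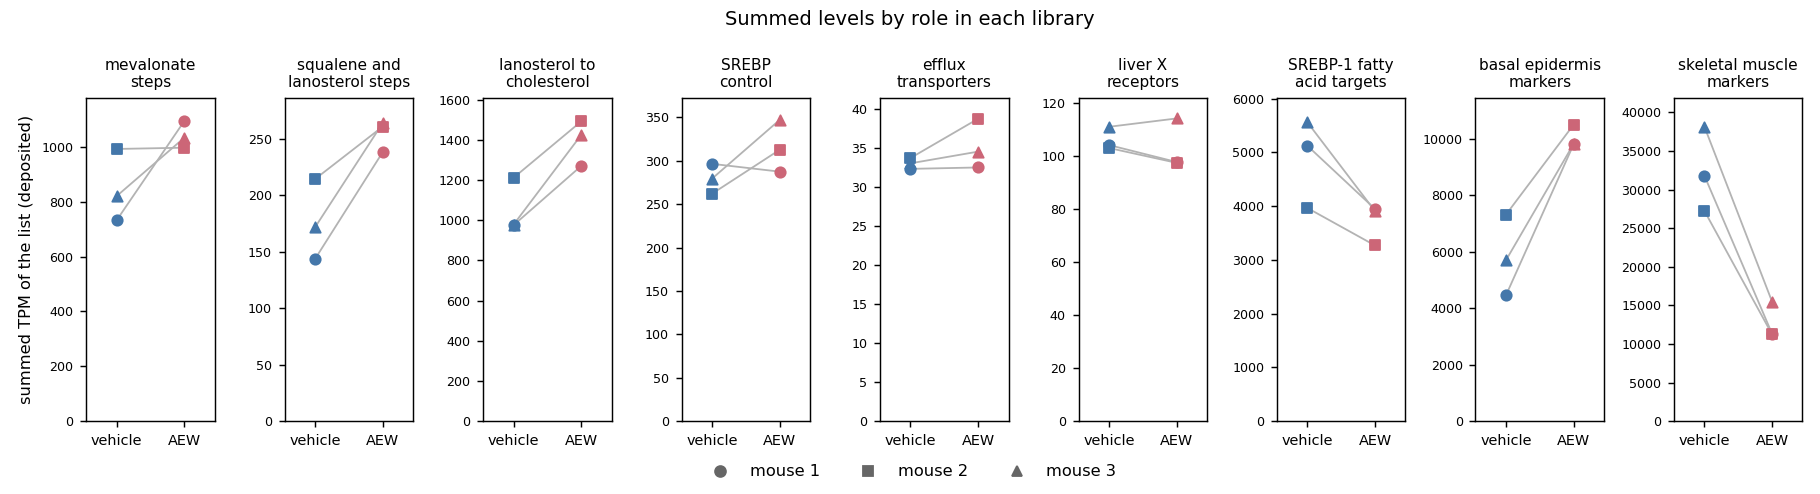
Summed deposited TPM is plotted per library for 6 groups of members, the SREBP-1 fatty acid genes and 2 marker lists, each panel on its own axis from 0, with lines joining the cheeks of 1 mouse. The 3 groups of synthesis enzymes have all AEW libraries above all vehicle libraries on this scale. For the mevalonate steps the 2 cheeks of mouse 2 nearly touch, at 993 TPM (vehicle) and 997 TPM (AEW), and 6 of the 7 genes overlap singly. The efflux and receptor groups overlap, and basal epidermis markers lie higher and muscle markers lower in AEW skin.

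Markers of several cell types differed between the cheeks along with the enzymes. The 5 basal epidermis markers summed to between 4454 and 7316 TPM in vehicle skin and between 9803 and 10501 TPM in AEW skin, higher in every mouse, with Krt14 called higher. The summed TPM of the 19 enzymes divided by that of the basal markers was 0.416, 0.331 and 0.346 in vehicle skin and 0.265, 0.262 and 0.277 in AEW skin. On this scale the enzymes were lower in AEW skin, with no overlap (two-sided exact permutation p = 0.1, and 0.25 within mice). The basal sum was mostly Krt14, whose mean TPM was 3139 in vehicle and 6390 in AEW skin. Krt14, Krt5 and Itga6 had log2 fold changes of 0.97, 0.43 and 0.40, above the enzymes' median of 0.33. Itgb4 and Col17a1 of the same list were below it, at 0.26 and -0.10. Divided by the 5 suprabasal markers the ratio was 0.132, 0.135 and 0.128 in vehicle skin and 0.159, 0.107 and 0.124 in AEW skin, with overlap (p = 0.8 in the same exact test). The suprabasal sum was mostly Krtdap, whose mean TPM was 10153 in vehicle and 11742 in AEW skin. Its markers did not move together. Krt1 was called higher at a log2 fold change of 1.89, and Krt10, Krtdap, Dsg1a and Lor were at 0.55, 0.16, -0.07 and -0.32. Both scales were chosen after the values were seen. Of 8 sebaceous gland markers 2 were higher and 1 was lower, beside 4.85% and 6.8% of all tested genes. Their summed TPM was 2512 to 2904 in vehicle and 3360 to 5701 in AEW skin. Fabp5 was the largest part of this sum, with a mean TPM of 1090 in vehicle and 2374 in AEW skin. The median log2 ratios of the 8 markers in mice 1, 2 and 3 were -0.35, 1.30 and 1.15. In mouse 1 the sum thus rose, from 2904 to 3360 TPM, while the median was below 0. Mouse 1 was the lowest, as for Dhcr7 and Hsd17b7. Both of these genes, however, were above 0 in mouse 1 (0.14 each) and had their highest ratio in mouse 3. The summed macrophage markers, like the sebaceous medians, were lower in the AEW cheek of mouse 1 and higher in those of mice 2 and 3. All 5 markers of dividing cells were higher in all 3 mice and 4 of them were called, with summed TPM of 49.3 to 75.4 in vehicle and 124 to 274 in AEW skin. Their median log2 ratios were 2.29, 0.83 and 1.26, an order like that of Lbr. The same order was found for basal epidermis (0.69, 0.13 and 0.41), fibroblast (0.51, 0.19 and 0.30) and hair follicle markers (2.50, -3.99 and 0.39). All 5 endothelial markers were lower in all 3 mice and 1 was called, with median log2 ratios of -0.74, -0.18 and -0.67. The part of these cell types in the enzymes' levels was not tested.

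**Figure D4:**
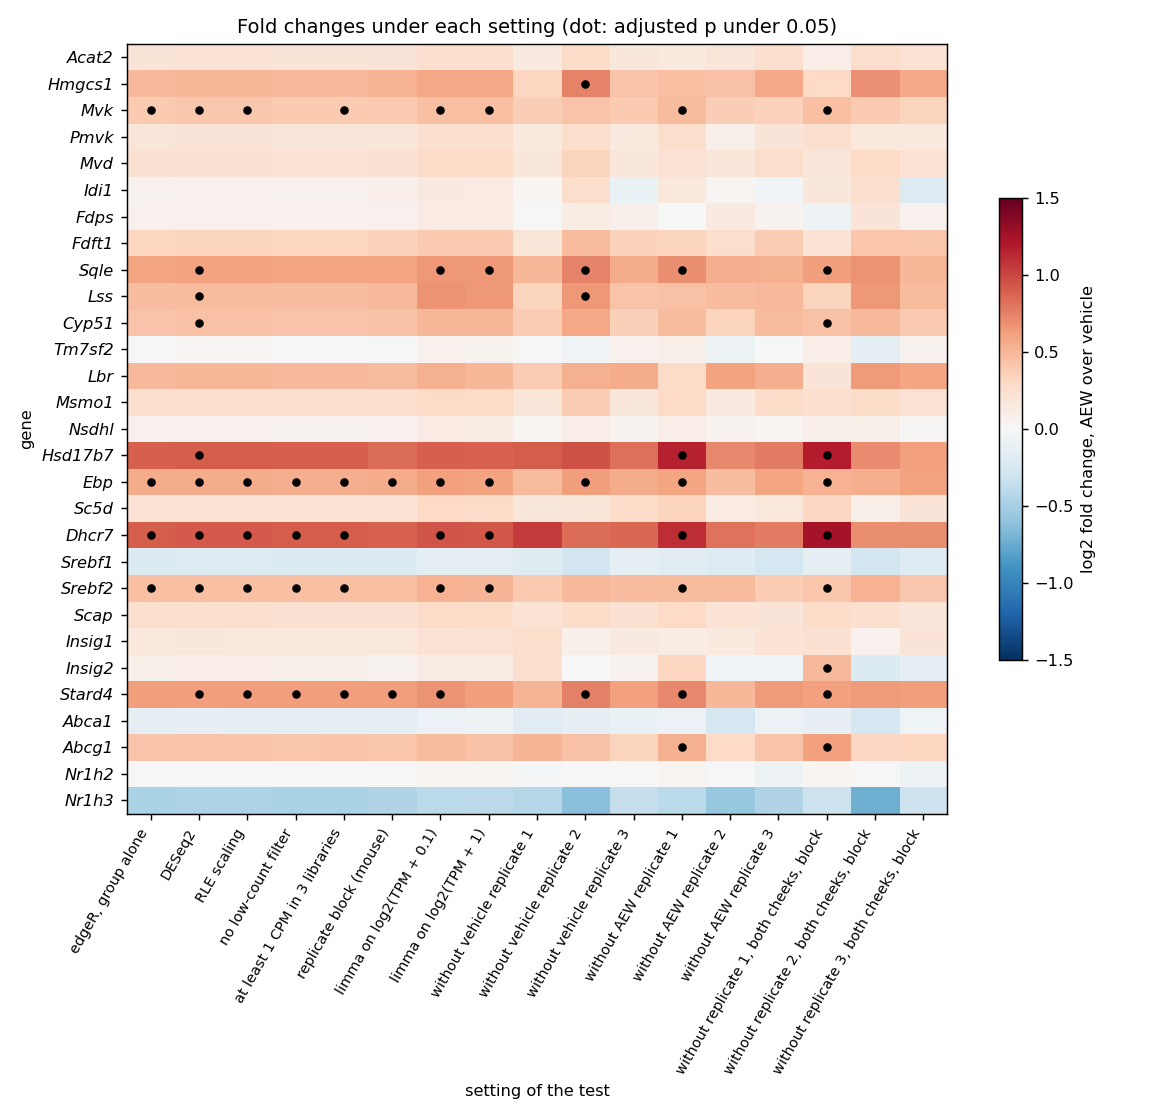
Log2 fold changes of the 29 members (rows) are coloured under 17 settings of the test (columns), with a dot where the adjusted p was under 0.05. Ebp, Dhcr7, Srebf2, Stard4 and Mvk carry most dots, none stand in 6 of the columns that leave out libraries or mice, and the sign of most members is the same across columns.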

How the data were processed

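Per the submitters' processing notes, reads were aligned with HISAT to GRCm39. The sources used here name neither the counting tool nor its annotation, nor say whether strand was kept. Per the file headers, the deposited table holds the authors' estimated counts, FPKM and TPM for each library and their group means. FPKM and TPM were computed by the authors per gene length and library size; FPKM was not used further. Between 53.9% and 57.2% of estimated counts were fractional, and all were rounded to whole numbers.

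Genes passing filterByExpr (minimum count 10) numbered 15109 and held all 29 members. Counts were TMM-scaled and tested with the quasi-likelihood test of edgeR 4.0.16 (R 4.3.3) with no term but group, adjusted by Benjamini-Hochberg over all tested genes at 0.05. A standard error is the log2 fold change divided by the root of F. Alternatives used DESeq2 1.42.0, limma 3.58.1 on log2(TPM + 0.1) and log2(TPM + 1), other scaling and filters, the mouse as a block, and fewer libraries. The test was tried on simulated counts.

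The cheeks of 1 animal share a number, which pairs the libraries, though deviations from group means correlated at -0.27, -0.12 and -0.18 within mice. All pairs of libraries within a group differed by more than sampling noise. Members, lists and tests were chosen with earlier results of these data known. Named genes were the members past the threshold in either edgeR fit, the smallest p in each role, and up to 4 called genes of each other list. Some genes of the pathway are not reported here. Promoter windows come from RefSeq for GRCm38.p6, another build than that of the reads, and were matched by gene number.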

Additional observations from a re-analysis of the deposited data

How the results depend on the processing

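The count of members called lower was 0 under all 16 alternatives. The count called higher, 4 with group alone, was 9 with DESeq2 and 2 with the mouse as a block, and ran from 0 to 8 when 1 library was left out. With the mouse as a block and 1 mouse left out it was 10 without mouse 1, 0 without mouse 2 and 0 without mouse 3. Over all genes, 733 were higher and 1027 lower. DESeq2 gave 1351 higher, the mouse block 300 higher and 588 lower, and limma 666 lower on both TPM scales. Leaving out 1 library gave 23 to 1197 higher and 117 to 1041 lower. With the block, 1922 were higher and 1588 lower without mouse 1, 112 and 279 without mouse 2, and 0 and 0 without mouse 3. In each of these fits 1 residual degree of freedom remained among the samples.

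Signs turned for 5 members with fold changes near 0. When 1 library was left out, log2 fold changes ran from -0.080 to 0.039 for Nr1h2, from -0.011 to 0.14 for Fdps, from -0.082 to 0.088 for Tm7sf2, from -0.050 to 0.32 for Insig2 and from -0.10 to 0.26 for Idi1. Nr1h2 was 0.044 on both TPM scales. With the block and 1 mouse left out, Nr1h2 was 0.029 and 0.0088 (mouse 1, mouse 2), Fdps -0.076 (mouse 1), Tm7sf2 -0.14 (mouse 2), Insig2 -0.21 and -0.13 (mouse 2, mouse 3) and Idi1 -0.19 (mouse 3). The cause was not tested. Among the members called with group alone, the mouse block changed the call of Mvk, Dhcr7 and Srebf2, and Mvk was not called with no filter on low counts (adjusted p = 0.0536). Each member had 301 or more counts in each library, and the counting error of a log2 ratio, 0.017 to 0.11, was above the SD between mice for 1 of 29 members, Stard4.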
